A study of Mus musculus with 6 samples.

Results

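Near-projecting neurons are excitatory neurons of cortical layer 5 whose axons stay mostly close to the cell body, unlike the layer 5 neurons that reach the brainstem and spinal cord and the layer 6 neurons that reach the thalamus. In transcriptomic catalogues of mouse cortex they are recognised by Tshz2, a zinc finger transcription factor gene, and by Vwc2l, which encodes a secreted protein with von Willebrand factor C domains. Tshz2 is also known from other places, retrosplenial cortex among them, so other genes are needed to place a nucleus. The nuclei described here were chosen by counts of unique molecular identifiers (UMIs, 1 per captured RNA molecule). A nucleus had to hold at least 500 detected genes and at most 5% mitochondrial UMIs, at least 2 UMIs of the excitatory genes Slc17a7 and Sv2b together, at most 1 of the inhibitory genes Gad1 and Gad2, and at least 6 of Tshz2 and Vwc2l together. It could hold at most 2 UMIs of Rorb, 1 of Cux2 and 1 of Cplx3, Nxph4 and Ccn2 together, which mark other cortical layers. In all, 155 of 42589 barcodes met the rule, out of 40685 that passed the first 2 limits and 9042 that also passed the excitatory and inhibitory limits.

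The nuclei came from brains of wildtype C57BL/6 mice. They were sorted by flow cytometry and profiled by droplet-based 3' sequencing 6 weeks after sham surgery (3 libraries) or after 5/6 nephrectomy (3 libraries), an operation that removes most kidney tissue and serves as a model of chronic kidney disease. The design text names the cortex as the tissue and a comparison of kidney disease with sham as the purpose. Nothing in the labels says that a library is 1 animal, so p-values measure the spread between libraries only. Nuclei of 1 library share their source and were summed, and tests ran over the 6 libraries.

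Sham libraries 1 to 3 gave 23, 11 and 37 near-projecting-like nuclei, and nephrectomy libraries 1 to 3 gave 27, 27 and 30. Their summed counts were 160867, 59059 and 175312 UMIs in sham and 204822, 176538 and 132133 UMIs in nephrectomy. The sham 2 library was thus the thinnest in both respects, and 1 UMI there stood for 16.9 CPM (the UMIs of a gene scaled to the same total in every library) against 4.88 CPM in nephrectomy 1. No near-projecting-like barcode was shared between 2 libraries. Over all barcodes, the 15 library pairs shared 1 to 50. Median UMIs per nucleus were 6407, 5826 and 4112 in sham and 6341, 6473 and 3852 in nephrectomy, so the groups overlapped (difference of means 107, exact 2-sided permutation p = 0.9). Mitochondrial RNA made up 0.128% to 0.186% of their UMIs in sham and 0.115% to 0.162% in nephrectomy. Malat1, a nuclear RNA, made up 10.1% to 11.7% and 10.5% to 12.9%.

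Markers of the class that the rule did not use stood above other excitatory nuclei. All 6 of the further near-projecting markers that reached 20 CPM in these or in the 8481 other excitatory nuclei were higher here in 6 of 6 libraries. Sla2, the remaining one, gave only 10 UMIs in all. Slc17a7, which the rule used, was lower here than in other excitatory nuclei in 6 of 6 libraries. As background, 7.99% of 8671 genes at that level were higher in these nuclei in all 6 libraries and 7.31% were lower in all 6. This contrast was not tested, because the rule chose the nuclei, and every value in it is a description.

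Lypd1, which encodes a membrane-anchored modulator of nicotinic acetylcholine receptors, stood at 292, 102 and 194 CPM in sham and at 142, 85.0 and 114 CPM in nephrectomy. Other excitatory nuclei held 8.90 to 26.4 CPM and oligodendrocyte-like nuclei, which should lack it, 5.35 to 27.4 CPM. Etv1, a layer 5 transcription factor gene, stood at 727, 525 and 508 CPM in sham and 420, 215 and 689 CPM in nephrectomy. Both genes were above every other excitatory library, where Etv1 held 45.8 to 62.4 CPM. Htr2c, the serotonin 2C receptor gene, stood at 329, 169 and 125 CPM in sham and 132, 79.3 and 280 CPM in nephrectomy, against 16.8 to 61.1 CPM in other excitatory nuclei. Slc17a8, the gene of the third vesicular glutamate transporter, stood at 68.4, 67.7 and 34.2 CPM in sham and 29.3, 16.99 and 136 CPM in nephrectomy. Only 27 of the 155 nuclei carried its 48 UMIs, and other excitatory libraries held 0 to 1.47 CPM. Trhr, the receptor gene for thyrotropin-releasing hormone, also appeared in 27 nuclei, with 34 UMIs. It ranged from 5.66 CPM in nephrectomy 2 to 90.8 CPM in nephrectomy 3. Rapgef3, a cAMP-responsive exchange factor gene, was 1.66 log2 units above other excitatory nuclei on average, but oligodendrocyte-like nuclei held 40.1 to 75.5 CPM of it and were lower in only 3 of 6 libraries.

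By the rule that ranked genes on their smallest ratio over the 6 libraries, the 12 highest genes were Myzap, Mirt1, Lcp1, Stard5, Fezf2, Kcnip1, Nxph1, Lypd1, Slc17a8, Etv1, Nxph3 and Grik1. Myzap, known for a cell junction protein of the heart, stood at 118, 119 and 131 CPM in sham and 103, 85.0 and 219 CPM in nephrectomy, while other excitatory nuclei held 0.709 to 1.45 CPM. Mirt1, a long noncoding RNA gene, stood at 199, 271 and 143 CPM in sham and 92.8, 96.3 and 182 CPM in nephrectomy, against 0.886 to 3.62 CPM. Both were low in oligodendrocyte-like nuclei too, at up to 2.69 CPM for Myzap and 2.29 CPM for Mirt1. Lcp1, which encodes the actin-bundling protein L-plastin and is best known from blood cells, was on average 3.56 log2 units above other excitatory nuclei. Nxph1 and Nxph3, which encode secreted glycoproteins, were 3.46 and 2.49 log2 units above. Grik1, a kainate receptor subunit gene, was 3.17 units above, and Kcnip1, a subunit of A-type potassium channels, 3.00 units above. These ratios are of CPM + 5 and understate genes near 0 in the other nuclei. They hardly moved when the other excitatory nuclei were limited to those with at least 1000 genes (Lypd1 from 2.87 to 2.93, Etv1 from 3.03 to 3.04).

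At the other end stood Adam33, Col19a1, Clec18a, Krt12, A830036E02Rik, Gm45406, Ppp1r1a, Serpinb8, Vipr1, Ptprk, Fstl4 and Atad2. All but Gm45406 and Serpinb8 also had lower means in layer 6 corticothalamic-like nuclei (chosen by Foxp2 and Syt6) than in other excitatory nuclei, Vipr1 only slightly. For most of them a low level was thus not particular to near-projecting-like nuclei. The rule limited Rorb and Cux2 here but not in other excitatory nuclei, and its part in these gaps was not tested. Adam33, a membrane metalloproteinase gene, gave 8 UMIs in the 155 nuclei, against a mean of 82.1 CPM in other excitatory nuclei. Vipr1, a receptor gene for vasoactive intestinal peptide, stood at 6.22 to 39.9 CPM in sham and 15.1 to 56.6 CPM in nephrectomy, below other excitatory nuclei (mean 99.2 CPM) in 6 of 6 libraries. Ptprk, a receptor phosphatase gene, averaged 148 CPM in other excitatory nuclei and ranged from 6.22 to 79.3 CPM here. Of the genes of interest, 8 of 27 that reached 20 CPM were lower here in all 6 libraries and 7 higher. Camk2a, the kinase subunit of the postsynaptic density, was lower in 6 of 6 libraries (mean log2 ratio -1.30), as were Bdnf (7 UMIs in all) and Arc (31 UMIs).

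Of 29 deep-layer transcription factor genes, 10 were higher here than in other excitatory nuclei in all 6 libraries and 4 were lower. Fezf2, which specifies layer 5 output neurons, stood at 186, 220 and 160 CPM in sham and 142, 142 and 197 CPM in nephrectomy, against 17.9 to 26.1 CPM in other excitatory nuclei. Bcl11b (mean log2 ratio 0.99), Sox5 (0.78), Tle4 (1.15) and Bcl11a (0.73) were also higher in 6 of 6 libraries. Each of these also had a higher mean in layer 6 corticothalamic-like nuclei than in other excitatory nuclei. Sox5 and Bcl11a averaged higher here than in that class, and Bcl11b about the same. The part of the Rorb and Cux2 limits, set here but not in other excitatory nuclei, was not tested. Foxp2, which marks layer 6 corticothalamic neurons, was not higher here in 6 of 6 libraries. It stood at 45.3 to 74.2 CPM over the 6 libraries, against a mean of 70.2 CPM in other excitatory nuclei. In 78 layer 6 corticothalamic-like nuclei, chosen by Foxp2 and Syt6 themselves, it averaged 583 CPM. Tle4, by contrast, averaged 560 CPM there and ranged from 346 to 740 CPM in the near-projecting-like nuclei. Of the markers of layer 5 extratelencephalic neurons, Chrna6 and Erg gave 0 UMIs, and the 6 genes together reached 34.0 CPM at most. In other excitatory nuclei they summed to only 39.9 to 45.9 CPM. With 0 of them at a mean of 20 CPM in either class, this list cannot set the classes apart. Among receptors, Chrm2 (the muscarinic M2 receptor gene) stood at 68.0 to 162 CPM, against 11.8 to 16.1 CPM in other excitatory nuclei, and Slc17a6, the second vesicular glutamate transporter gene, at 16.99 to 68.4 CPM against a mean of 10.9 CPM.

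**Figure D1:**
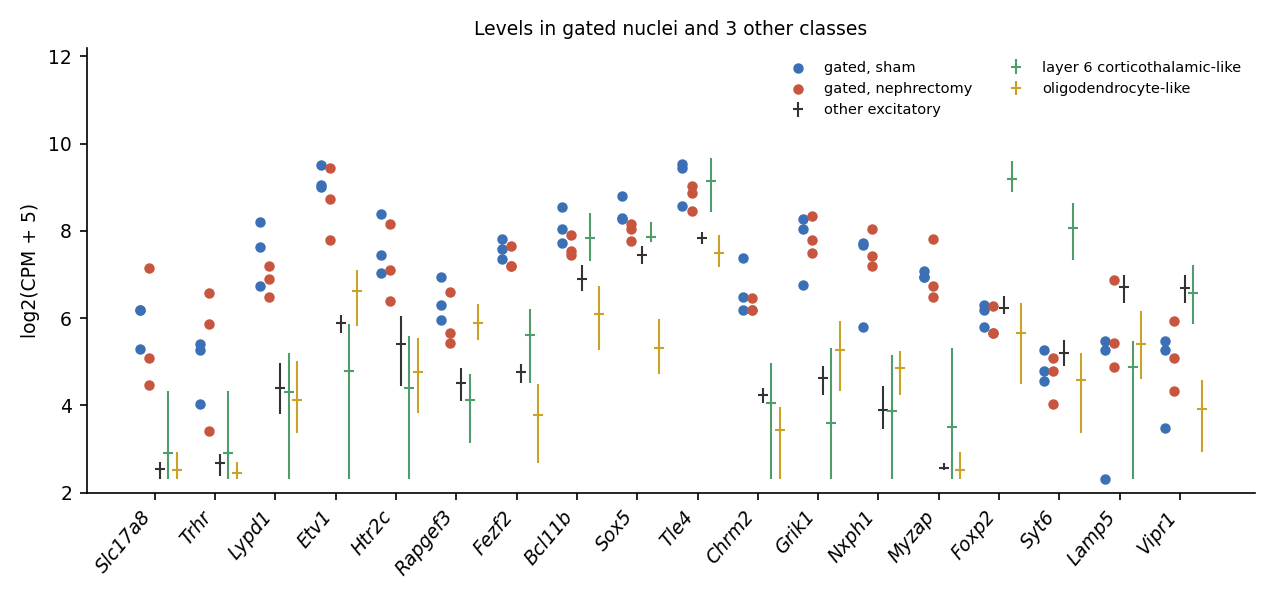
Levels of 18 genes on the log2(CPM + 5) scale. Dots are the 3 sham and 3 nephrectomy libraries of near-projecting-like (gated) nuclei, and bars run from the lowest to the highest library, with a tick at the log2 of the mean, in 3 other classes. Genes from Slc17a8 to Fezf2 lie above other excitatory nuclei in all 6 libraries, while Foxp2 and Syt6 lie far below the layer 6 corticothalamic-like nuclei.

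The gate is a threshold on a continuum of counts. Just outside it, 76 nuclei held 4 or 5 UMIs of Tshz2 and Vwc2l, and just inside it 45 nuclei held 6 or 7. Lypd1 summed to 31.7 CPM in the former, 94.6 CPM in the latter and 185 CPM in the 110 nuclei with 8 or more. Fezf2 stood at 39.1, 128 and 180 CPM over the same steps, and Etv1 at 283, 420 and 526 CPM. Slc17a8 (17.1, 49.4 and 54.1 CPM) and Trhr (14.7, 37.0 and 37.6 CPM) rose mostly at the first step. Rapgef3 and Htr2c followed no such order, with 73.3, 41.1 and 76.6 CPM for Rapgef3 and 100, 86.4 and 213 CPM for Htr2c. Median depth was 4254, 5353 and 5242 UMIs per nucleus over the 3 steps.

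Tshz2 (ENSMUSG00000047907, chromosome 2, 169633013 to 170071816 on the plus strand of GRCm38, protein coding) was found in 154 of the 155 nuclei, with a median of 8 and a highest count of 32 UMIs. Vwc2l (ENSMUSG00000045648, chromosome 1, 70725715 to 70885397, plus strand) was found in 94 of 155 (60.6%). Per library, 17 of 23, 8 of 11 and 20 of 37 sham nuclei and 18 of 27, 10 of 27 and 21 of 30 nephrectomy nuclei held a Vwc2l UMI. Nephrectomy 2 was the lowest, at 37.0%. Nuclei with and without a Vwc2l UMI had like median depths, 5313 and 5133 UMIs. Several markers went with it. Lypd1 pooled to 207 CPM with Vwc2l (95% exact interval 172 to 248, counting error only) and to 79.0 CPM without it (51.6 to 116), and Htr2c to 230 and 91.1 CPM. Each was higher in the Vwc2l-positive nuclei of 5 of 6 libraries. Myzap (161 and 63.8 CPM), Lcp1 (107 and 36.4 CPM) and Stard5 (93.2 and 57.7 CPM) were higher there in 6 of 6. Slc17a8 (51.8 and 54.7 CPM) did not follow it. Tshz2 pooled to 1572 CPM with Vwc2l and 1594 CPM without it, and was lower in the Vwc2l-positive nuclei of 5 of 6 libraries. A nucleus without Vwc2l needed at least 6 Tshz2 UMIs to pass, so the rule shaped this comparison and it cannot relate the 2 genes. Because Vwc2l helped a nucleus to pass the rule, these splits are given without a test.

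Markers of other excitatory neurons were present too. Those of glutamatergic neurons outside the neocortex summed to 267, 84.7 and 188 CPM in sham and 293, 108 and 318 CPM in nephrectomy, so 4 of 6 libraries lay above every library of other excitatory nuclei (124 to 173 CPM). Gnb4, a G protein subunit gene, gave much of that sum, at 28.3 to 174 CPM, and oligodendrocyte-like nuclei held 476 to 813 CPM of the list. Upper-layer and retrosplenial markers summed to 68.4 to 200 CPM in sham and 161 to 295 CPM in nephrectomy, below the 368 to 512 CPM of other excitatory nuclei. Cux2 is in that list and was limited by the rule here but not in those nuclei, so part of the gap was set by the rule. Layer 6 markers, with Cplx3 and Nxph4 likewise limited only here, summed to 84.7 to 168 and 90.6 to 197 CPM, against 136 to 190 CPM in other excitatory nuclei. RNA of other cell types was also found. Cplx3 and Nxph4 (layer 6b, limited by the rule), Drd2 (striatum), and Kcnj8 and Dcn (vessels and meninges) gave 0 UMIs. The 6 oligodendrocyte markers summed to 33.9 to 371 CPM in sham and 60.5 to 615 CPM in nephrectomy, against 4064 to 6153 CPM in oligodendrocyte-like nuclei and 83.2 to 377 CPM in other excitatory nuclei. Astrocyte markers summed to 12.4 to 91.3 and 62.3 to 75.7 CPM, microglial markers to 16.9 to 125 and 28.3 to 34.2 CPM, and vascular markers to 16.9 to 55.9 and 22.7 to 30.3 CPM. Inhibitory markers, part of them limited by the rule, summed to 33.9 to 194 and 176 to 283 CPM, and striatal markers to 135 to 354 and 73.6 to 415 CPM. At least 2 UMIs of 37 glial, vascular and striatal markers were found in 13 of 23, 5 of 11 and 28 of 37 sham nuclei and in 23 of 27, 11 of 27 and 11 of 30 nephrectomy nuclei. Sham 3 and nephrectomy 1, the libraries with the most barcodes, had the highest shares. Other excitatory nuclei held such UMIs in 55.7%, 50.3% and 61.6% of nuclei in sham and 76.8%, 36.3% and 48.8% in nephrectomy, with the same libraries highest. No doublet caller was run on so few nuclei, and the part of free RNA or doublets in the results below was not tested.

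The share of near-projecting-like nuclei varied more within the groups than between them. They made up 0.896%, 0.364% and 0.271% of kept nuclei in sham and 0.221%, 0.624% and 0.616% in nephrectomy. The ranges overlapped, and the group means were 0.510% ± 0.338 and 0.487% ± 0.231 (SD, n = 3 libraries per group, exact 2-sided permutation p = 0.9). Of excitatory nuclei they made up 3.22%, 1.45% and 1.28% in sham and 1.11%, 2.35% and 2.71% in nephrectomy. These means were 1.98% ± 1.07 and 2.06% ± 0.839 (SD, n = 3, exact 2-sided permutation p = 1). With 3 libraries on each side an exact permutation p cannot go below 0.1, so neither share could pass 0.05. The sign of both differences turned under several other settings and with single libraries left out. Without sham 1 the difference in the share of kept nuclei was 0.170 percentage points, and without nephrectomy 1, whose other excitatory nuclei had a median of only 1445 UMIs, it was 0.110. For thinning, kept nuclei under 2000 UMIs were left out: 290, 821 and 6810 in sham and 8682, 1297 and 1555 in nephrectomy. The others were thinned to 2000 UMIs. Only 20 nuclei then passed, with 3, 0 and 6 in sham and 2, 4 and 5 in nephrectomy.

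**Figure D2:**
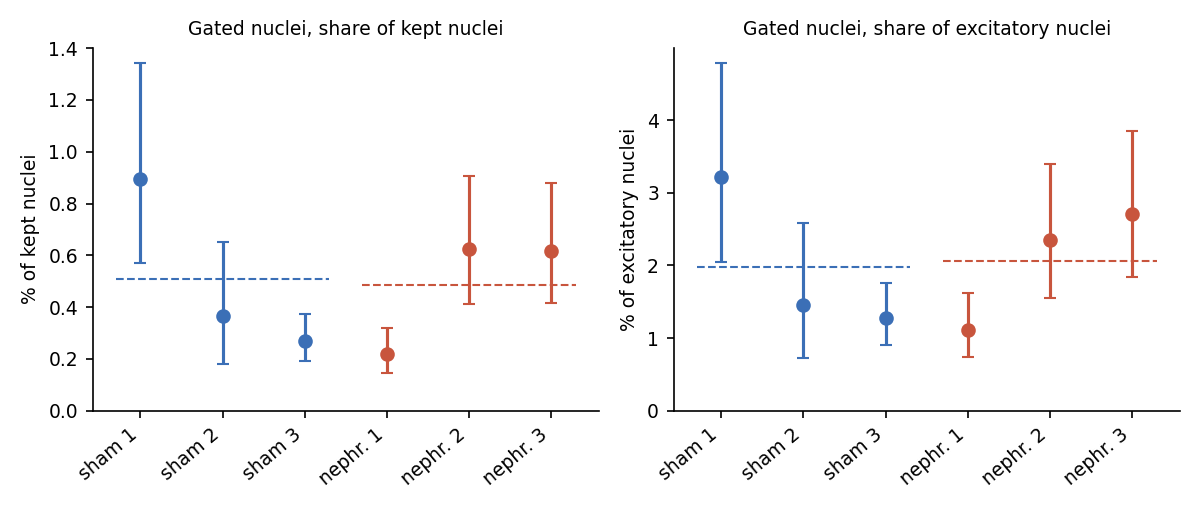
Near-projecting-like nuclei as a percentage of kept nuclei and of excitatory nuclei, by library. Points carry 95% exact binomial intervals, which cover counting error only, and dashed lines are group means. Sham 1 is the highest library in both panels, and nephrectomy 1 the lowest.

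Within near-projecting-like nuclei, no gene passed the test of nephrectomy against sham. Of 3988 genes that passed the low-count filter, 1992 were higher and 1996 lower, and edgeR called 0 of them (0%) at an adjusted p under 0.05, with a smallest adjusted p of 0.994. At an unadjusted p under 0.05 stood 160 genes (4.01%), 85 higher and 75 lower. The DESeq2 Wald test called 0 (44 at an unadjusted p under 0.05) and limma-voom called 0 (189). The 3 nephrectomy libraries lay wholly above or below the 3 sham libraries in 383 genes (9.6%), of which 202 were above. The difference between this effect and the one in other excitatory nuclei of the same libraries was tested too, and edgeR again called 0 of 3988 genes (0%), with 154 at an unadjusted p under 0.05 and a smallest adjusted p of 0.999.

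Fold changes of the markers of the class lay on both sides of 0, and none passed. Tshz2, which the rule used for choosing nuclei, was at 2207, 1541 and 1791 CPM in sham and 1313, 1178 and 1506 CPM in nephrectomy, so each nephrectomy library lay below each sham library. Its log2 fold change was -0.48 ± 0.19 (SE, edgeR adjusted p = 0.994). Groups were apart in 9.6% of all genes tested. The rule required at least 6 UMIs of Tshz2 and Vwc2l, so the Tshz2 level in passing nuclei was partly set by it. These Tshz2 values are thus a description only. The difference from other excitatory nuclei was -0.56 ± 0.44. Those nuclei were chosen for at most 1 UMI of Tshz2 and Vwc2l together, so this difference cannot compare the effects on Tshz2. Lypd1 (chromosome 1, 125867622 to 125913101, minus strand), given above by library, had a log2 fold change of -0.89 ± 0.33 (edgeR adjusted p = 0.994). Sham 2, with 6 Lypd1 UMIs, overlapped the nephrectomy range, and without sham 1 the value was -0.50. Of the 8 tested genes of the marker list 3 were used by the rule. Of the 5 others, 4 were lower and 1 higher, with 0 called and a median of -0.45, against 0.00 over all genes tested. Etv1 stood at -0.45 ± 0.29, Rapgef3 at -0.29 ± 0.44 and Slc17a8 at 0.03 ± 0.62. The Slc17a8 value turned to -1.16 without nephrectomy 3 and -0.32 without sham 3. Htr2c stood at -0.45 ± 0.40 and turned to 0.18 without sham 1, the library with its highest level. Trhr, under the filter, gave 10 UMIs in sham and 24 in nephrectomy (0.85 ± 0.60 with no filter). Of the genes the rule used, Vwc2l stood at -0.40 ± 0.40 and Slc17a7 at 0.02 ± 0.21, and Slc17a7 turned to -0.15 without sham 1 and -0.0129 without sham 2. Summed without the genes of the rule, the marker list reached 1542, 1016 and 947 CPM in sham and 874, 453 and 1370 CPM in nephrectomy, so the groups overlapped.

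The genes with the lowest p among those that were higher were Gm42418, Dnm2, Azin1, Cox8a and Rnf227. Dnm2, the gene of the endocytic GTPase dynamin 2 (chromosome 9, 21424908 to 21507759, plus strand), stood at 43.5, 33.9 and 39.9 CPM in sham and 112, 90.6 and 144 CPM in nephrectomy (1.48 ± 0.42). Neither it nor the 4 others passed, each with an edgeR adjusted p of 0.994. Azin1, which encodes antizyme inhibitor 1, a regulator of polyamine synthesis, stood at 43.5, 33.9 and 57.0 CPM in sham and 146, 96.3 and 129 CPM in nephrectomy (1.37 ± 0.39). The groups of both genes were apart, which their choice by lowest p in these same libraries favours. In other excitatory nuclei the fold changes were 0.16 ± 0.23 for Dnm2 and 0.22 ± 0.16 for Azin1, and the differences of 1.26 ± 0.41 and 1.10 ± 0.39 did not pass (edgeR adjusted p = 0.999). Rnf227, named for a RING finger domain, stood at 68.4, 67.7 and 45.6 CPM in sham and 161, 96.3 and 159 CPM in nephrectomy (1.23 ± 0.37). Gm42418 overlaps a ribosomal RNA repeat, so its counts can be ribosomal RNA. It stood at 6229, 5283 and 5881 CPM in sham and 10917, 6707 and 9006 CPM in nephrectomy (0.62 ± 0.17), and at 0.76 ± 0.30 in other excitatory nuclei.

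The 5 with the lowest p among the lower genes were Scube1, Kcna4, Rhobtb2, Lrrn3 and Ppp6r2. Scube1 (chromosome 15, 83604999 to 83725021, minus strand), which encodes a secreted protein with EGF-like domains, stood at 155, 102 and 85.6 CPM in sham and 43.9, 34.0 and 15.1 CPM in nephrectomy (-1.79 ± 0.45). For it and the 4 others, too, the edgeR adjusted p was 0.994. These are 25, 6 and 15 UMIs against 9, 6 and 2, and 12 of the 25 in sham 1 came from 1 nucleus. Kcna4 (chromosome 2, 107290639 to 107298502, plus strand), which encodes a potassium channel subunit of A-type current, stood at 280, 119 and 120 CPM in sham and 83.0, 56.6 and 83.2 CPM in nephrectomy (-1.28 ± 0.37). Without sham 1, where 12 Kcna4 UMIs came from 1 nucleus, it was at -0.66. In other excitatory nuclei Scube1 stood at -0.27 ± 0.14 and Kcna4 at -0.06 ± 0.17. Both were also among the 3 genes with the lowest p for a more negative effect than in those nuclei, with differences of -1.59 ± 0.45 and -1.18 ± 0.33 that did not pass (edgeR adjusted p = 0.999). Rpl23, a ribosomal protein gene, was the other one (-1.16 ± 0.35). Rhobtb2, Lrrn3 and Ppp6r2 stood at -1.08 ± 0.33, -1.15 ± 0.37 and -0.97 ± 0.31, with groups apart for Rhobtb2 and Ppp6r2 and overlapping for Lrrn3, a neuronal leucine-rich repeat gene. For a more positive effect the 3 lowest were Gria3, an AMPA receptor subunit gene (difference 0.74 ± 0.21), Lsamp, a neuronal adhesion gene (0.70 ± 0.21), and the noncoding Gm33533 (1.57 ± 0.51). Gria3 stood at 416, 593 and 565 CPM in sham and 566, 855 and 575 CPM in nephrectomy. Its own effect was 0.38 ± 0.22, against -0.40 ± 0.21 in other excitatory nuclei.

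**Figure D3:**
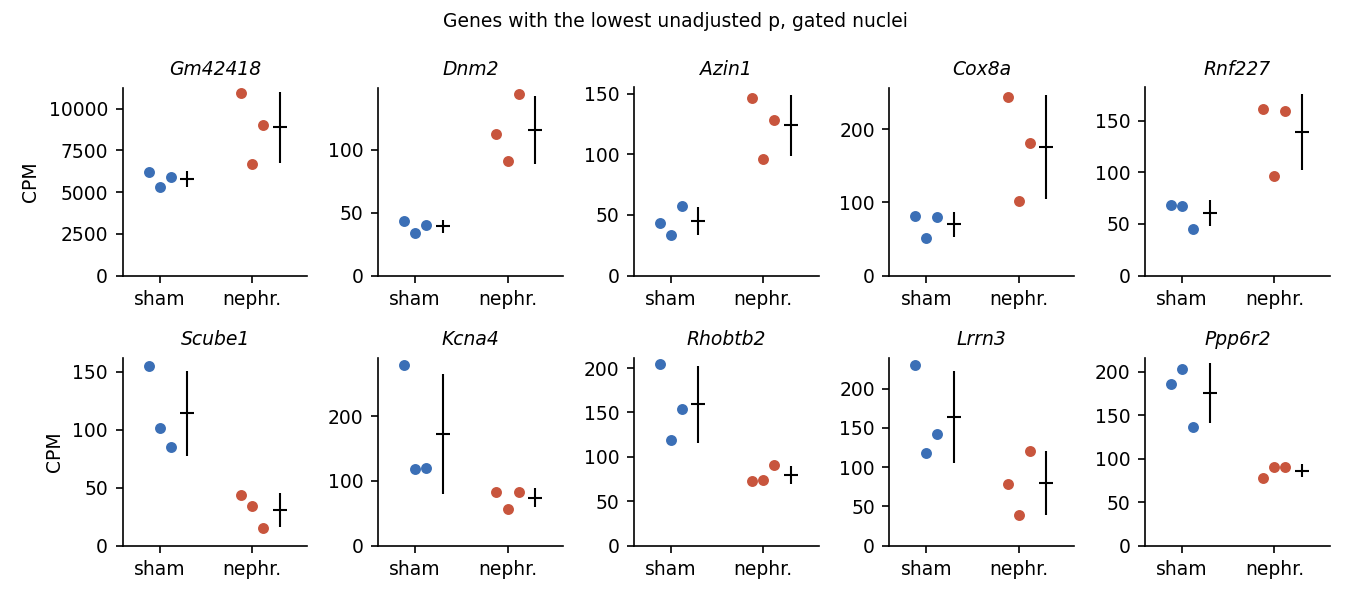
CPM per library for the 10 genes with the lowest unadjusted p, 5 higher after nephrectomy (upper row) and 5 lower (lower row). Points are libraries, and the tick and bar beside them are the mean and SD (n = 3). Groups are apart for all of them except Lrrn3, against 9.6% of all 3988 genes tested. Their choice by lowest p in these same libraries favours genes with groups apart. No gene passed the adjusted test.

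Col11a1, a fibrillar collagen gene (chromosome 3, 114030540 to 114220718, plus strand) singled out after its values were seen, was the one gene called under any alternative fit of nephrectomy against sham. It did not pass the low-count filter. It gave 3, 0 and 2 UMIs in sham and 25, 5 and 20 in nephrectomy, or 18.6, 0 and 11.4 CPM against 122, 28.3 and 151 CPM. The 20 UMIs of nephrectomy 3 all lay in 1 nucleus, and 18 of the 25 of nephrectomy 1 in another. Only 13 of 155 nuclei held any, with 1, 0 and 2 in sham and 4, 5 and 1 in nephrectomy. With no filter the log2 fold change was 2.87 ± 0.60 (edgeR adjusted p = 0.0294), without nephrectomy 2 it was 3.34 ± 0.57 (adjusted p = 0.00856 in edgeR), and with the gate at 4 UMIs 3.02 ± 0.50 (edgeR adjusted p = 0.0344). Without sham 1, sham 2 or sham 3 it was 3.43 ± 0.83, 2.65 ± 0.65 and 2.79 ± 0.79 and was not called (edgeR adjusted p from 0.259 to 0.316). With a Vwc2l UMI required it was 3.21 ± 0.86 and not called (edgeR adjusted p = 0.330). It was not tested after the filter with nephrectomy 1 or nephrectomy 3 left out. Other excitatory nuclei held 83.8 to 119 CPM.

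**Figure D4:**
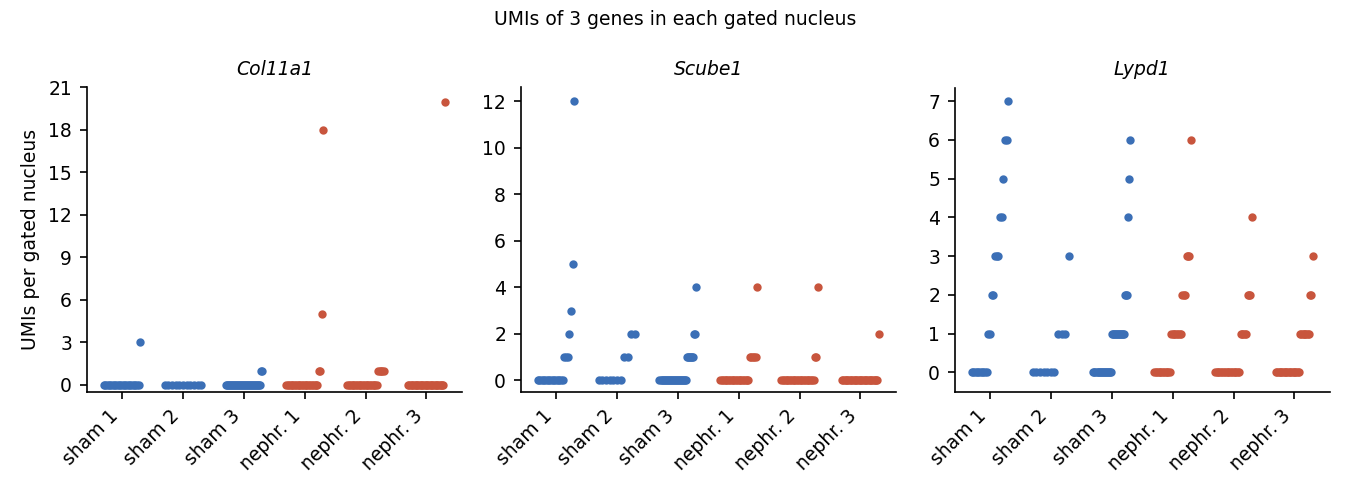
UMIs of Col11a1, Scube1 and Lypd1 in each near-projecting-like nucleus, by library (1 point per nucleus, blue sham, red nephrectomy, spread sideways in order of count). Of the Col11a1 UMIs in nephrectomy 1 and 3, 18 and 20 lie in single nuclei, while those of Lypd1 are spread over 71 nuclei with at most 7 each.

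Among gene groups, members of the ribosome and the respiratory chain stood mostly higher after nephrectomy, with 0 members called in any list. Of 50 tested ribosomal protein genes 40 were higher (median log2 fold change 0.25), and of 30 tested nuclear genes of the respiratory chain 24 were higher (median 0.22). Over all genes tested 1992 of 3988 were higher. In each list 4 members were higher at an unadjusted p under 0.05, as were 85 of all 3988 genes. Among the 4 of the respiratory chain was Cox8a (80.8, 50.8 and 79.9 CPM in sham, 244, 102 and 182 CPM in nephrectomy, 1.24 ± 0.36). In other excitatory nuclei the same genes had medians of 0.60 and 0.62. Summed over the list, respiratory chain RNA was at 4109, 2794 and 3297 CPM in sham and 5932, 3586 and 4791 CPM in nephrectomy, so nephrectomy 2 lay within the sham range. Ribosomal protein RNA was at 5135, 3911 and 5733 CPM and at 7421, 4622 and 6213 CPM, with the same library inside the sham range. Nephrectomy 1 was highest in both, and it also had the highest oligodendrocyte marker sum (615 CPM) and the highest share of nuclei with markers of other classes (85.2%). Nephrectomy 3 was second highest in both, but had the lowest oligodendrocyte marker sum of the nephrectomy libraries (60.5 CPM). Its share of nuclei with markers of other classes was the lowest of all libraries (36.7%). The part of background RNA in these sums was not tested. The ribosomal median stayed between 0.05 and 0.40 in the 16 alternatives that gave one, and the respiratory median between 0.13 and 0.60 in 15. Of 8 tested genes of the mitochondrial genome, 7 were lower (median -0.28). mt-Co1 stood at -0.04 ± 0.22 and mt-Atp6 at -0.56 ± 0.33, and the median turned to 0.07 at its highest over the alternatives. Of 14 stress and heat shock genes 10 were higher (median 0.24), with Hspa8 at 0.59 ± 0.33 and Hsp90aa1 at 0.38 ± 0.31. The median of these genes in other excitatory nuclei was 0.34.

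Deep-layer transcription factors stood lower more often, with 16 of 23 tested lower, 0 called and a median of -0.09 that kept its sign in all 18 alternatives. Sox5 was at 311, 440 and 302 CPM in sham and 215, 261 and 280 CPM in nephrectomy (-0.42 ± 0.24), with the groups apart. Groups were apart in only 1 of the 23 tested genes of the list, against 9.6% of all genes tested. Tle4 (-0.42 ± 0.24) and Bcl11b (-0.44 ± 0.27) overlapped between groups, as did Fezf2 (-0.21 ± 0.29). In other excitatory nuclei Sox5 stood at -0.39 ± 0.11, and the median of the list there was -0.15.

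Synaptic and channel genes centred on 0. Of 34 tested glutamate receptor and postsynaptic genes 17 were higher and 17 lower (median 0.01). Grm5, the metabotropic glutamate receptor 5 gene, was at 1567, 1355 and 861 CPM in sham and 1001, 629 and 916 CPM in nephrectomy (-0.55 ± 0.22, with an edgeR adjusted p of 0.994), and stood at -0.49 ± 0.21 in other excitatory nuclei. Gria2 was at -0.33 ± 0.18 and Grin2b at -0.22 ± 0.18. Camk2a was at 193, 271 and 331 CPM in sham and 352, 493 and 242 CPM in nephrectomy, where the groups overlapped (0.48 ± 0.27). Presynaptic genes divided 17 to 17 (median 0.01), GABA receptor genes 8 higher to 6 lower (0.06), potassium channel genes 14 to 13 (0.02), sodium and calcium channel and pump genes 10 to 18 (-0.06) and adhesion and guidance genes 17 to 19 (-0.11). Slc12a5, the potassium-chloride cotransporter gene, stood at 0.11 ± 0.25. Ntng1, an axon guidance gene, ranged from 33.9 to 559 CPM in sham and from 22.7 to 255 CPM in nephrectomy, and its fold change of -1.29 ± 1.35 was within 1 SE of 0 and turned to 0.51 without sham 1.

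**Figure D5:**
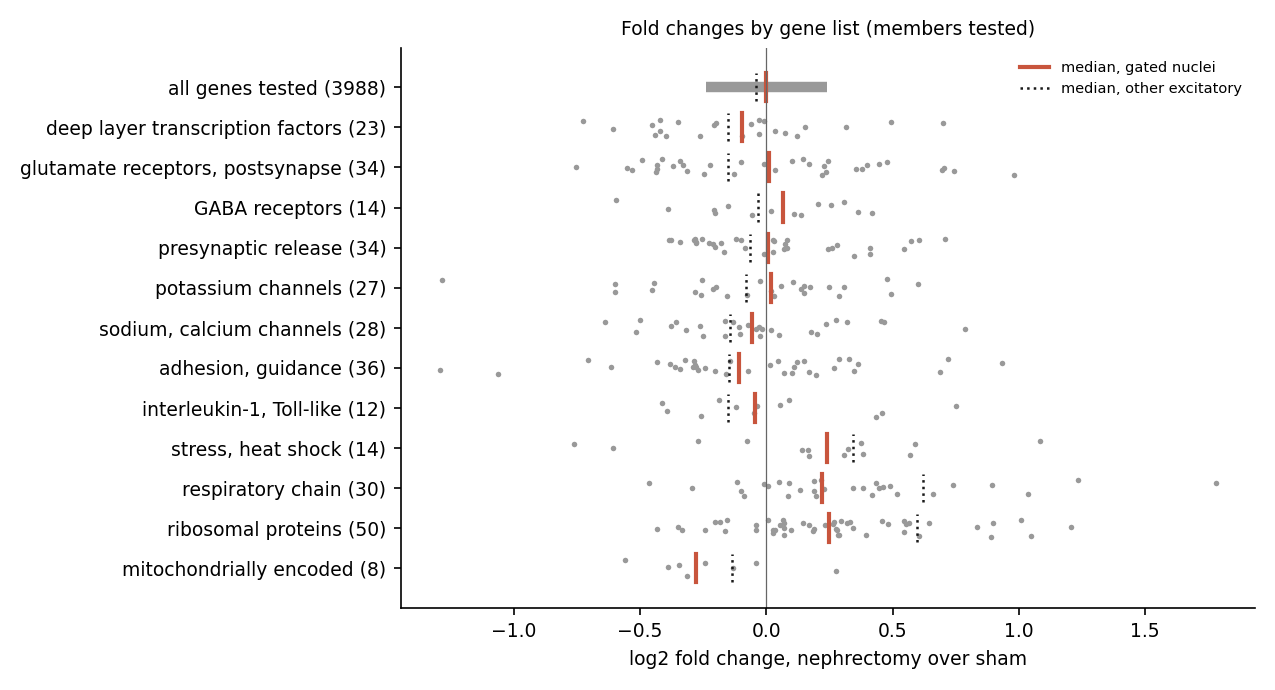
Log2 fold changes of nephrectomy over sham for members of 12 gene lists that passed the low-count filter (number in brackets). Grey points are genes, the grey bar is the middle 50% of all 3988 genes tested, red lines are medians in near-projecting-like nuclei and dotted lines medians of the same genes in other excitatory nuclei. Ribosomal and respiratory chain medians lie at 0.25 and 0.22, and the synaptic and channel lists near 0.

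The series title points to the interleukin-1 receptor in neurons. Il1r1 gave 2 UMIs in the 155 nuclei, 1 in sham 1 and 1 in nephrectomy 1. Pooled over a group, 3 UMIs would correspond to 7.59 CPM in sham and 5.84 CPM in nephrectomy, so both groups were under that floor and no difference was detectable at this depth. Its co-receptor Il1rap stood at 12.4, 67.7 and 108 CPM in sham and 73.2, 136 and 37.8 CPM in nephrectomy, with groups that overlapped (0.43 ± 0.54, turning to -0.15 without sham 1 and -0.11 without nephrectomy 2). It was lower than in other excitatory nuclei in 6 of 6 libraries, and oligodendrocyte-like nuclei held 176 to 335 CPM. Il1rapl1, a synaptic relative in the same family, stood at 709, 576 and 434 CPM in sham and 312, 481 and 499 CPM in nephrectomy (-0.41 ± 0.23). Of the 12 tested genes of interleukin-1 and Toll-like receptor signalling, 5 were higher and 7 lower (median -0.04). Il1rl1, Il1rn, Il18r1, Il18rap, Sigirr, Tlr2 and Tlr4 gave 0 UMIs.

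Receptors for circulating signals and genes of recent activity were thinly covered. Nr3c1, the glucocorticoid receptor gene, stood at 124, 119 and 143 CPM in sham and 122, 142 and 83.2 CPM in nephrectomy (-0.14 ± 0.32, and 0.0247 without nephrectomy 3). Of the neuromodulator receptor list 4 of 50 genes passed the filter, with Chrm2 at -0.57 ± 0.39, Htr1f at 0.16 ± 0.36 and Adora1 at -0.07 ± 0.47 beside Htr2c. Of 26 immediate early genes 3 passed, and all of them stood higher without being called: Homer1 (0.40 ± 0.25), Egr1 (0.72 ± 0.50) and Nr4a1 (0.77 ± 0.62). Their median was 0.37 in other excitatory nuclei. Egr1 was at 12.4, 33.9 and 91.3 CPM in sham and 87.9, 56.6 and 106 CPM in nephrectomy, so the groups overlapped. Fos gave 12 UMIs and Arc 31 in all.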

How the data were processed

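Single-nucleus libraries from 3 sham and 3 nephrectomy samples were used. Each library has 1 deposited matrix of whole-number UMI counts for 32285 genes. Per the labels' protocols, mm10 was the genome and intronic reads were counted. Cell Ranger is 6.0.1 per the file headers, 2.1.1 per the submitters' processing notes and 3.0 per the labels' extract protocol, and these were not reconciled. Including introns counts unspliced nuclear RNA and favours long genes.

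From these counts, nuclei were chosen by the stated rule, summed per library and compared by the robust quasi-likelihood test of edgeR 4.0.16, after filterByExpr and TMM scaling. Tests were 2-sided, and p-values were adjusted by Benjamini-Hochberg over all genes tested, with a threshold of 0.05. The different-effect test used both sums of each library with the library as a term, over genes passing the filter in near-projecting-like sums. Fold changes are log2, nephrectomy over sham. Ratios between classes used CPM + 5. Values of genes under the filter come from the fit without it. Layer 6 corticothalamic-like nuclei had at least 6 UMIs of Foxp2 and Syt6, and oligodendrocyte-like nuclei at least 3 of Mog, Mag and St18. Shares were compared by exact permutation over libraries. Coordinates came from GENCODE M21 (GRCm38), with 32235 of 32285 IDs found. DESeq2 1.42.0 and limma 3.58.1 served as alternatives, beside other size factors, filters, gates and left-out libraries. The code was tested on simulated data.

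Named genes are the 5 with the lowest p per direction with a mean of at least 20 CPM (3 for the different-effect test), since none passed, the 12 highest and 12 lowest against other excitatory nuclei, all genes of the marker list and of a list of interest, and up to 4 of every other list by level. A few genes that the rule names are left out of the text. Members and lists were chosen with earlier results of these data known.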

Additional observations from a re-analysis of the deposited data

How the results depend on the processing

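No gene was called in the main fit, and the count of called genes was 1 (Col11a1) with no filter on low counts and with the gate at 4 UMIs, and 0 to 1 with single libraries left out (1 without nephrectomy 2). It was 0 in all other alternatives run. For the different-effect test it was 2 with no filter and with a filter over both classes jointly (chosen after seeing the data), where Vmn1r209 joined Col11a1 with 14, 1 and 0 UMIs in sham and 0 in each nephrectomy library, and 14 of its 15 UMIs came from 1 nucleus of sham 1. It was 1 with the gate at 4 UMIs and 0 to 1 with single libraries left out (1 without sham 2 and without nephrectomy 2). The gate at 10 UMIs and the removal of nuclei with 2 or more UMIs of other classes left fewer than 10 nuclei in some libraries and were not run under that limit. Run on all libraries for nephrectomy against sham, as alternatives chosen after seeing the data, both called 0. For the different-effect test neither was run.

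The difference in the share of kept nuclei was -0.0233 percentage points. It became 0.143 when nuclei needed 1000 genes or more and 0.0136 without nuclei with UMIs of other classes. After thinning to 2000 UMIs, with kept nuclei under that depth left out of both counts, it was 0.0400. It ranged from -0.143 to 0.170 with single libraries left out. The share of excitatory nuclei, 0.0751, turned to -0.119 with the gate at 4 UMIs, -0.497 at 10 UMIs and -0.205 with a Vwc2l UMI required, and ranged from -0.278 to 0.694 with single libraries left out. The difference in median UMIs, 107, turned to -260 with the gate at 4 UMIs and -134 with a Vwc2l UMI required, and ranged from -561 to 959 with single libraries left out. The cause was not tested for any of these.

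Of 614 fold changes of 38 genes over the alternatives, 35 changed sign, in 16 genes, and 30 of the 35 were of genes whose value lay within 1 SE of 0. Without nuclei with UMIs of other classes, Vwc2l turned to 0.0304, Bcl11b to 0.16, Fezf2 to 0.51, Scn8a to 0.13, Cacna1e to 0.20 and Slc17a7 to -0.30. With the gate at 10 UMIs, Grin2b turned to 0.0592, Gria1 to 0.17, Scn8a to 0.29 and Cacna1e to 0.0766. With the gate at 4 UMIs, Rpl23 turned to 0.0845 and Slc17a7 to -0.0821. With a Vwc2l UMI required, Slc17a7 turned to -0.00900, Cpne7 to -0.0558, Nr3c1 to 0.11, Scn8a to 0.12 and Cacna1e to 0.18. Without the top 5% of nuclei by UMIs, Slc17a7 turned to -0.0728 and Scn8a to 0.0263. Cacna1e turned to 0.0718 with equal nuclei per library, and Slc17a8 to -0.45 in limma-voom with quality weights. With single libraries left out, values ranged from -0.98 to 0.18 for Htr2c, -0.15 to 0.25 for Slc17a7, -1.16 to 0.47 for Slc17a8, -0.15 to 1.54 for Il1rap, -0.29 to 0.18 for Crym, -0.31 to 0.0247 for Nr3c1, -3.24 to 0.51 for Ntng1 and -0.27 to 0.0767 for Scn8a. The cause was not tested. Another 34 values moved beyond their error without a change of sign, and 545 did not. With the replicate number as a block, 0 genes were called (153 at an unadjusted p under 0.05 in edgeR). Libraries with the same number had correlations of 0.03, 0.09 and -0.10 in their deviations from the group means, and not every library correlated best with its own number. A paired permutation of the shares gave the same differences, -0.0233 and 0.0751, and cannot go below p = 0.25 with 3 pairs. Depth limits the results most in sham 2, where 11 nuclei held 59059 UMIs.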

Other observations

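Among markers of other neuron classes, 4 low-count genes stood higher in each nephrectomy library than in each sham library, all named after their values were seen. They were picked from lists of 8 upper-layer and retrosplenial, 6 extratelencephalic, 9 layer 6, 10 other glutamatergic, 10 inhibitory and 7 striatal genes. Among the 3988 genes tested, groups did not overlap in 9.6%, with 202 genes above and 181 below. These 4 genes were under the low-count filter, so that share is not a like background for them. No count of genes in these lists that lay wholly below is given here, so the 4 have no background to be read against. Rprm, a gene of layer 6 corticothalamic neurons in mouse cortex, stood at 6.22, 0 and 11.4 CPM in sham and 39.1, 28.3 and 60.5 CPM in nephrectomy (3 UMIs in sham), against 59.9 CPM on average in layer 6 corticothalamic-like nuclei. Nr4a2, a deep-layer and claustrum marker, stood at 6.22, 0 and 11.4 CPM in sham and 24.4, 16.99 and 37.8 CPM in nephrectomy. Prox1, a marker of dentate gyrus granule cells and of some interneurons, stood at 6.22, 0 and 11.4 CPM in sham and 24.4, 16.99 and 15.1 CPM in nephrectomy, and averaged 213 CPM in oligodendrocyte-like nuclei. At this depth 11.4 CPM in sham 3 and 15.1 CPM in nephrectomy 3 are each 2 UMIs, so its counts there were equal. Dlx6os1, a noncoding RNA gene of inhibitory neurons, stood at 6.22, 0 and 5.70 CPM in sham and 14.6, 28.3 and 37.8 CPM in nephrectomy. The other layer 6 corticothalamic markers Foxp2 and Syt6 overlapped between the groups. Nefl, the neurofilament light chain gene, also under the filter, stood at 24.9, 50.8 and 34.2 CPM in sham and 122, 130 and 22.7 CPM in nephrectomy, where nephrectomy 3 was the lowest of all 6 libraries.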
